A study of Mus musculus with 3 samples.

Results

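Basement membrane components and receptors were followed as a list of 34 named genes out of the 32285 features of the deposited matrices. The list holds 10 laminin chain genes, the 6 collagen IV chain genes, the nidogens, perlecan (Hspg2) and agrin (Agrn), the Fras and Frem genes, 6 further matrix proteins and 5 receptor subunits, and membership is set by gene name. The libraries are droplet-based single-cell 3′ RNA libraries from pooled mouse otic vesicles, the embryonic pouches that form the inner ear, at E10.5. Group CD has 1 library (replicate 1) of genotype Sox9 Y440X/+, and group WT has 2 libraries (replicates 1 and 2) of wild-type embryos. All embryos of a library were pooled, so a library is 1 measurement, and nothing in the labels says whether the WT replicates came from separate litters. The p-values therefore measure only the spread between these libraries, which may be technical.

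A basement membrane is a thin sheet of matrix under epithelia and around vessels, nerves and muscle. Laminins, each built of an alpha, a beta and a gamma chain, assemble on the cell surface through integrins and dystroglycan. Collagen IV forms a second network, nidogens and perlecan join the networks, and agrin links laminin to dystroglycan. Fras1, Frem1 and Frem2 form a complex below epithelia of the embryo. In the ear, the epithelium of the vesicle lies on such a sheet and faces the periotic mesenchyme, and neuroblasts leave the epithelium through it.

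Barcodes were kept from 1000 detected genes upward, with mitochondrial UMIs (unique molecular identifiers, 1 per captured transcript) of 10% or less. They were sorted into classes by gates that use no member of the list. Otic cells had an Epcam UMI and at least 2 UMIs of Fbxo2, Hmx2, Hmx3 and Pax2 together. Mesenchyme needed at least 2 UMIs of Prrx1 and Twist1, endothelium at least 2 of Cdh5 and Pecam1, and neurons at least 2 of Neurod1 and Stmn2, with no Epcam UMI in mesenchyme and neurons. In the order CD replicate 1, WT replicate 1 and WT replicate 2, which all values below follow, the otic gate took 2635, 2429 and 3847 cells and the mesenchyme gate 1818, 1058 and 2475. Endothelium had 224, 244 and 265 cells and neurons 849, 591 and 1060. The marker list of each class summed highest in that class. The summed otic list was 1338 to 2242 CPM (UMIs scaled to the usual counts-per-million unit by the class's own UMI sum) in otic cells. The endothelium list was 3613 to 3817 CPM in endothelium against 20.8 to 31.7 CPM in otic cells. Both lists include the genes of the gates. The mesenchyme list was 2007 to 2291 CPM in mesenchyme and the neuron list 5386 to 6410 CPM in neurons. The erythroid list summed to 9504, 6142 and 6584 CPM in mesenchyme and 17165, 8805 and 20398.5 CPM in neurons. In both this was above the class's own list. It was at 3360, 958 and 3299 CPM in otic cells and 624, 3354 and 3728 CPM in endothelium. The neuron gate also took 110, 30 and 244 cells of the mesenchyme gate and 36, 36 and 48 of the endothelium gate, so values for neurons are given with and without cells that meet another gate. After the filters, 14 barcodes were shared between CD replicate 1 and WT replicate 1, 26 between CD replicate 1 and WT replicate 2, and 14 between the WT libraries.

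Upstream sequence could be matched by gene symbol for 21 of the 34 members, as 27 windows of the 250 bases before a transcript start (RefSeq, GRCm38.p6, a build other than the mm39 of the deposited files). Col4a5 and Col4a6 start 1343 bases apart on chromosome X, and Col4a1 and Col4a2 start 21 bases apart on chromosome 8. The windows of Col4a5 and Col4a6 are shown because these neighbours were both higher in otic cells than in every other class, and those of Lama5 and Npnt because both genes were among the most otic of the list. Each sequence runs 5′ to 3′ on the gene's strand, cut short of the bases that an annotated model of the same gene transcribes. Capitals mark the GC box letters GGGCGG on either strand, searched together with the SOX letters AACAAT.
Col4a5, chrX:141475169-141475369, plus strand: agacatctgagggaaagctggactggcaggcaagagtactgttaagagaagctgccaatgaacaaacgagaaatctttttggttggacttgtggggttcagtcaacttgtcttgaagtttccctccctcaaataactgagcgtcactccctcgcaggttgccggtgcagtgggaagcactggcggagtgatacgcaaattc
Col4a6, chrX:141474096-141474326, minus strand: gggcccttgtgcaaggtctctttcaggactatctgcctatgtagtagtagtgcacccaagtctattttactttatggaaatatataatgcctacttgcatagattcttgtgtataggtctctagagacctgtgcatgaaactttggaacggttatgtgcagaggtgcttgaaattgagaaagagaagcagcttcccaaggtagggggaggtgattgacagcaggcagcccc
Lama5, chr2:180225905-180226109, minus strand: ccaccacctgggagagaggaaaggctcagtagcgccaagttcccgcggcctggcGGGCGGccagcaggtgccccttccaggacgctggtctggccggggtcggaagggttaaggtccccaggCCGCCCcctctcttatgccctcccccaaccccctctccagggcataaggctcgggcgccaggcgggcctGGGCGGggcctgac
Npnt, chr3:132950292-132950541, minus strand: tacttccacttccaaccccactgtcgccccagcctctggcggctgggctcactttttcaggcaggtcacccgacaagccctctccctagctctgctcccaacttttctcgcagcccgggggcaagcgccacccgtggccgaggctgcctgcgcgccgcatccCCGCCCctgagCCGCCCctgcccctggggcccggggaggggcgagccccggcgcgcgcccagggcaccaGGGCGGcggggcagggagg

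The Lama5 and Npnt stretches each hold 3 GC box matches and are 71.7% and 74% G and C, while the Col4a5 and Col4a6 stretches hold no match and are 49.7% and 45.5% G and C. The whole windows of 250 bases hold GGGCGG for all 4 genes, so for Col4a5 and Col4a6 the match lies in or reaches into the bases next to the start that are not shown. Over whole windows of 250 bases, GGGCGG was found in 16 of the 27 member windows (59.3%) and in 32.7% of all 32851 windows. AACAAT was found in 0 of the 27 member windows and in 9.42% of all windows. A match of letters is a description and not a binding site.

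**Figure D1:**
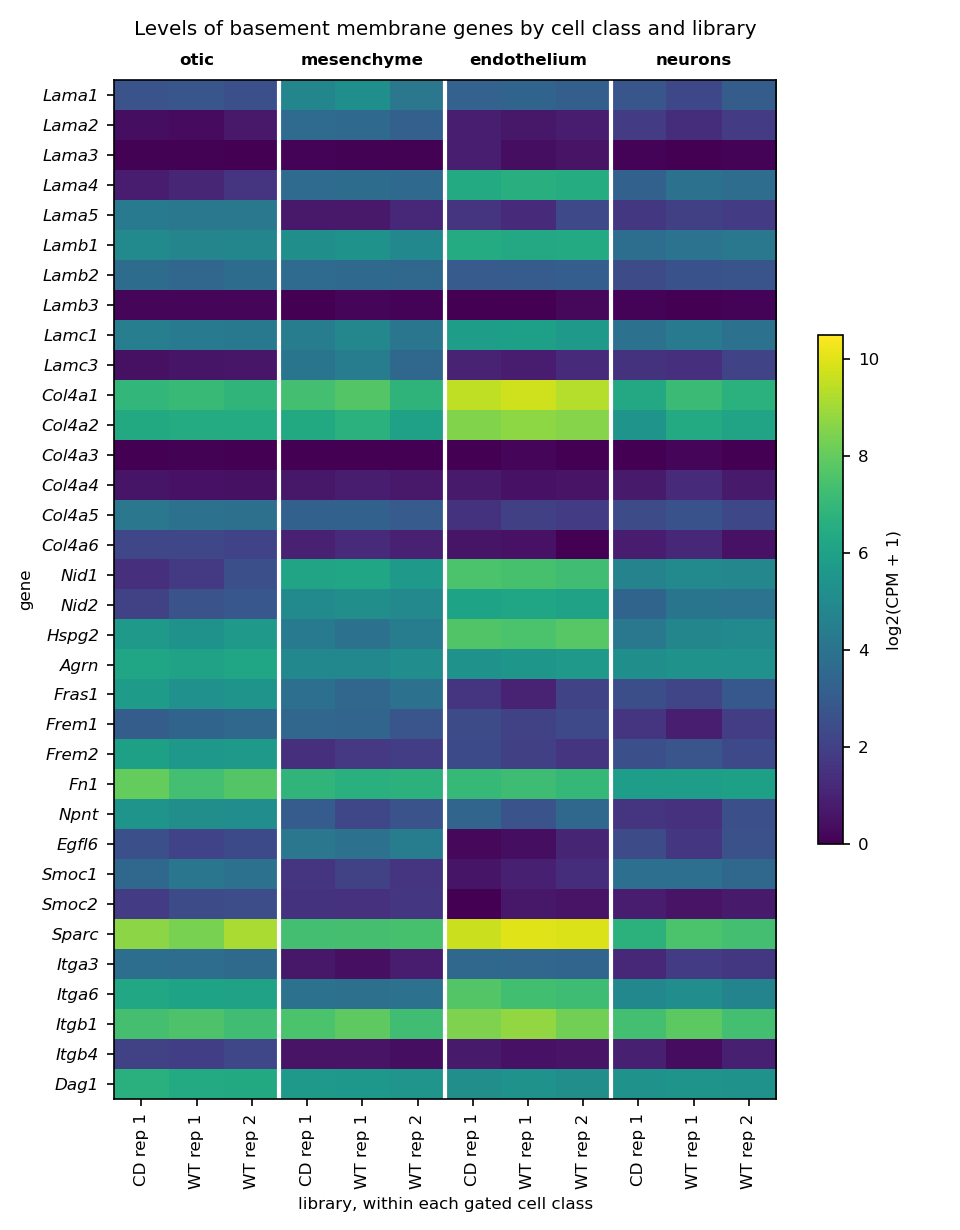
Levels of the 34 genes as log2(CPM + 1), one row per gene and one column per library within the otic, mesenchyme, endothelium and neuron gates, with colour giving the level. Col4a1 and Sparc reach their highest levels in endothelium, and Lama5, Frem2 and Npnt are high in the otic columns and low elsewhere.

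The leading class differed between members. By mean level over the 3 libraries, 16 members were highest in otic cells, 13 in endothelium, 4 in mesenchyme and 1 in neurons. The same counts were not made over all genes, so they only describe this list. They include members too low to test, such as Lama3 (0.54 CPM in endothelium) and Lamb3 (0.13 CPM in otic cells). These levels are not scaled between classes. Lamb2 and Frem1, highest in otic cells by mean, had otic to mesenchyme log2 fold changes of -0.10 and -0.03. Itga3, with its otic libraries above the endothelial ones, had 0.06 between these classes and no call. In the edgeR fit with the library as a block, 31 members were tested, and Lama3, Lamb3 and Col4a3 were too low. Between otic cells and mesenchyme, 16 members were higher in otic cells, against 31.5% of all 15857 genes tested, and 11 were lower, against 31.4%. The median log2 fold change of the tested members was 0.77, and that of all genes was -0.01. Against endothelium, 15 members were higher in otic cells (38.9% of all genes) and 12 lower (31% of all genes), with a member median of 0.06 and an all-gene median of 0.12. Without the library block, 24 members were called between otic cells and mesenchyme, where 49.1% of all genes were.

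Between otic cells and neurons, 18 members were higher in otic cells (33.5% of all genes) and 7 lower (32% of all genes), and without the cells that meet another gate 24 were higher (34.4% of all genes) and 2 lower (29.9% of all genes). Between mesenchyme and endothelium, 12 members were higher in mesenchyme (32.3% of all genes) and 16 lower (27.6% of all genes), with a member median of -0.52 against 0.09 for all genes. In cells thinned to 5000 UMIs each, 7 and 6 members were higher in 2 random draws (3076 of 13309 and 3071 of 13283 genes). The lower ones were 14 and 16 (2946 and 2959 genes). Without CD replicate 1, 7 were higher (3559 of 15460 genes) and 16 lower (3886 genes). Dag1 lost its call in 8 of 13 alternative settings, and Col4a6 and Smoc1 in 7 each.

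**Figure D2:**
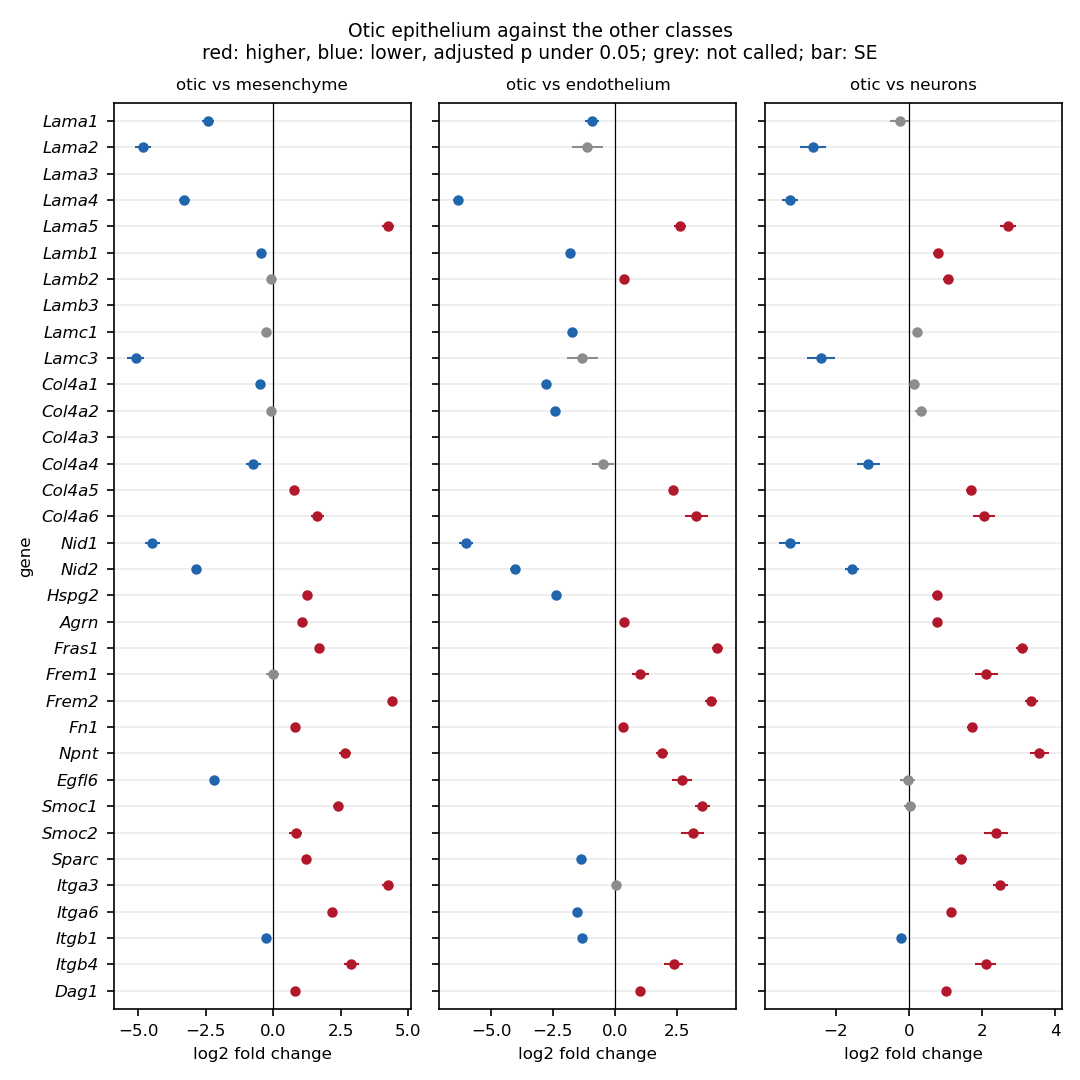
Log2 fold changes of otic cells against mesenchyme, endothelium and neurons from the edgeR fit, one row per gene, with bars of 1 SE, red for higher and blue for lower at an adjusted p under 0.05, and grey for not called. The scales of the 3 panels differ. Lama5, Fras1, Frem2 and Npnt lie to the right in all 3 panels, and Nid1, Nid2 and Lama4 to the left.

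The laminin alpha chain, which carries the main receptor-binding domains of a laminin, separated the classes. Lama5, the alpha chain of many epithelial laminins, was at 19.4, 17.2 and 17.4 CPM in otic cells. Its levels were 0.651, 0.642 and 1.25 CPM in mesenchyme and 2.07, 1.46 and 3.94 CPM in endothelium. The otic libraries did not overlap with those of any other class, and Lama5 was higher in otic cells than in mesenchyme by a log2 fold change of 4.24 (SE 0.22, adjusted p = 5.19e-08). Lama1, the alpha chain of the earliest embryonic laminin, was at 5.49, 6.09 and 4.89 CPM in otic cells and 27.6, 36.7 and 17.1 CPM in mesenchyme. The fold change of Lama1 was -2.41 (SE 0.22, adjusted p = 3.45e-06), so mesenchyme had the higher level in every library. Lama2, the alpha chain of muscle and nerve laminins, was at 0.296, 0.233 and 0.653 CPM in otic cells and 11.8, 11.1 and 8.43 CPM in mesenchyme, a fold change of -4.84 (SE 0.29, adjusted p = 1.47e-07). Lama4, the alpha chain of vascular laminin, was at 84.4, 94 and 88.7 CPM in endothelium, 11.6, 12.1 and 11.1 CPM in mesenchyme and 0.764, 1.17 and 1.95 CPM in otic cells. Its fold change between otic cells and endothelium, -6.33 (SE 0.21, adjusted p = 7.63e-10), was the lowest of the 31 tested members. Lama3, the alpha chain of hemidesmosomal laminin, had 3, 3 and 2 UMIs in otic cells in all.

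Counting UMIs within the alpha chain genes, 1 UMI standing for 1 transcript end, Lama5 gave 74.6%, 69.6% and 69.9% of them in otic cells (71.4% ± 2.80, SD, n = 3). In endothelium Lama4 gave 86.9%, 88.8% and 87.0%, and in mesenchyme Lama1 gave 53.3%, 60.7% and 45.1%. Lama1 was the second alpha chain of otic cells, with 21.2%, 24.6% and 19.6%. These are shares of transcripts and say nothing about protein. The neuron gate had Lama4 as its leading alpha chain, but without cells of other gates Lama4 was at 1.76, 4.10 and 2.46 CPM there and Lama5 at 2.74, 3.28 and 2.27 CPM.

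**Figure D3:**
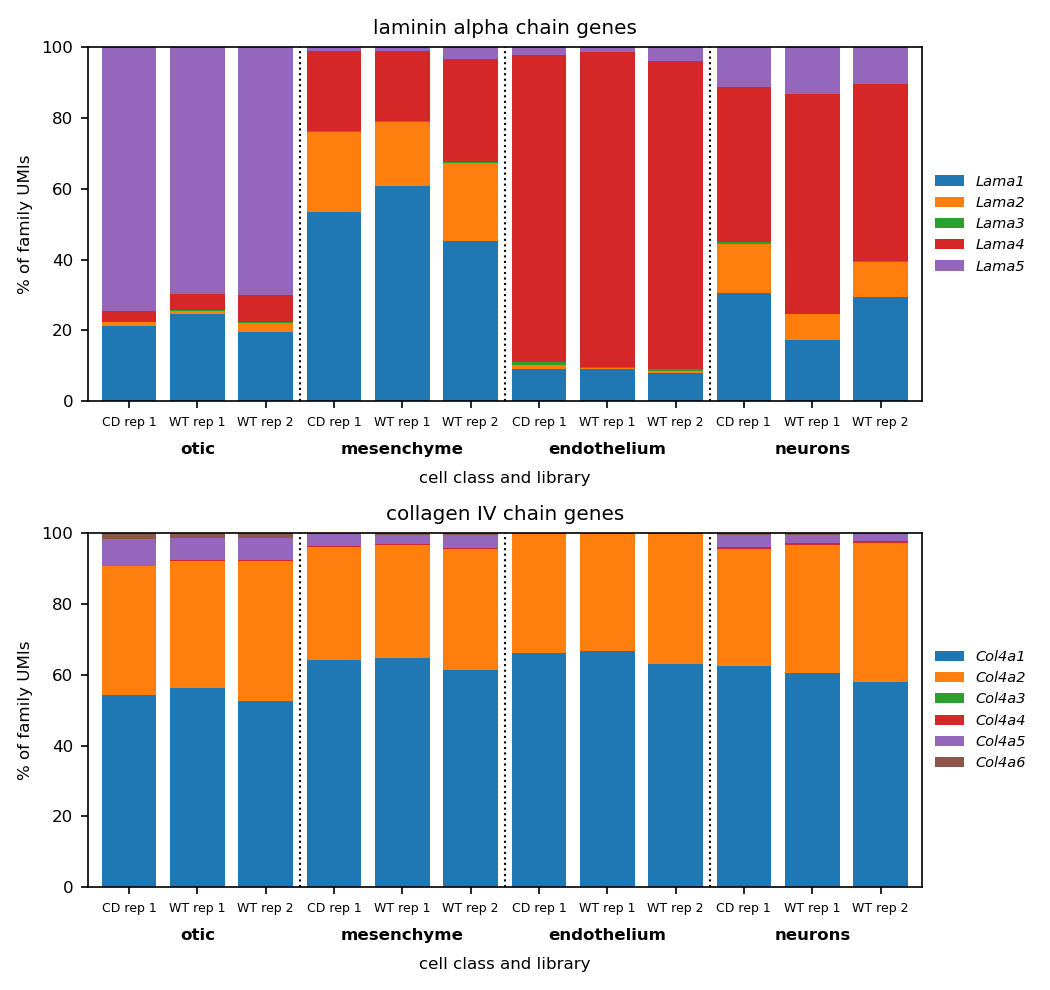
Share of UMIs, in percent of each family's UMIs, for the laminin alpha chain genes (upper panel) and the collagen IV chain genes (lower panel), one stacked bar per library within each class. Lama5 takes most of the otic alpha bars and Lama4 most of the endothelial ones, and Col4a1 takes more than Col4a2 in every bar of the lower panel.

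Of the beta and gamma chains, Lamb1, Lamb2 and Lamc1 were shared more widely, while Lamc3 was highest in mesenchyme. Lamb1, the beta chain common to embryonic laminins, was at 31.7, 26.1 and 27.3 CPM in otic cells, 36.9, 39.7 and 28.6 CPM in mesenchyme and 87.5, 80.4 and 85.3 CPM in endothelium. Endothelium was above the other classes in every library. The otic to mesenchyme difference of Lamb1 was -0.44 (SE 0.12, adjusted p = 0.00641), and without WT replicate 1 it was -0.28 (adjusted p = 0.115). Lamb2, a beta chain of later and synaptic basement membranes, was at 12, 10.1 and 12.2 CPM in otic cells and 11.7, 11 and 10.7 CPM in mesenchyme, with no call between them (adjusted p = 0.358). Lamc1, the common gamma chain, was at 21.7, 19.5 and 17.8 CPM in otic cells and 58.7, 59.7 and 49.8 CPM in endothelium, a fold change of -1.74 (SE 0.11, adjusted p = 1.17e-07). Lamc3, a less common gamma chain, was at 16, 20.9 and 10.3 CPM in mesenchyme against 0.39, 0.51 and 0.565 CPM in otic cells, a fold change of -5.10 (SE 0.30, adjusted p = 1.23e-07). Lamc3 gave 43.4%, 42.8% and 38.3% of the UMIs of Lamc1 and Lamc3 together in mesenchyme. Lamb3 had 9, 10 and 9 UMIs in otic cells.

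Collagen IV was led by Col4a1 and Col4a2, the chains of the common network, in every class. Col4a1 was at 720, 847 and 651 CPM in endothelium, 165, 208 and 114 CPM in mesenchyme and 123, 136 and 117 CPM in otic cells. The endothelial level was above both in every library, with an otic to endothelium fold change of -2.79 (SE 0.14, adjusted p = 1.45e-08). Otic cells and mesenchyme differed in Col4a1 by -0.48 (SE 0.13, adjusted p = 0.00792), but their libraries overlapped, and the difference was -0.33 (adjusted p = 0.119) without WT replicate 1 and -0.51 (adjusted p = 0.0573) without the library block. Col4a2 was at 82.1, 86.6 and 88.1 CPM in otic cells and 81.9, 103 and 62.8 CPM in mesenchyme, with no call. The ratio of Col4a1 to Col4a2 UMIs was 1.5, 1.57 and 1.33 in otic cells and 1.98, 2.02 and 1.71 in endothelium.

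Col4a5 and Col4a6, the X-linked chains found together in epithelial and smooth muscle basement membranes, were the otic side of the family. Col4a5 was at 17.1, 14.7 and 13.5 CPM in otic cells, 8.54, 8.53 and 7.01 CPM in mesenchyme and 1.89, 2.92 and 2.68 CPM in endothelium. It was higher in otic cells than in mesenchyme by 0.77 (SE 0.10, adjusted p = 7.03e-05) and than in endothelium by 2.34 (SE 0.17, adjusted p = 2.28e-07). Col4a6 was at 3.74, 3.69 and 3.38 CPM in otic cells and 0.933, 1.38 and 0.926 CPM in mesenchyme, a fold change of 1.63 (SE 0.25, adjusted p = 0.00019). The libraries of otic cells lay above those of all other classes for both genes. They gave 7.55%, 6.09% and 6.09% (Col4a5) and 1.65%, 1.53% and 1.52% (Col4a6) of the collagen IV UMIs of otic cells. WT replicate 1 had no Ddx3y or Eif2s3y UMI in any class, unlike the other libraries, and the part of this in the values of the X-linked members was not tested. Col4a4 was at 0.402 to 0.499 CPM in otic cells, and its call against mesenchyme (-0.74, SE 0.28, adjusted p = 0.04) was lost without any 1 of the libraries, with -0.90 without CD replicate 1, -0.60 without WT replicate 1 and -0.70 without WT replicate 2.

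The linkers of the networks differed in their leading class. Nid1, a nidogen that bridges laminin and collagen IV, was at 182, 175 and 152 CPM in endothelium, 68.4, 70.4 and 48.8 CPM in mesenchyme and 1.72, 2.48 and 4.89 CPM in otic cells. The fold change of Nid1 between otic cells and mesenchyme was -4.48 (SE 0.28, adjusted p = 1.84e-07). In cells thinned to 5000 UMIs each, 1.00%, 1.37% and 2.11% of otic cells had a Nid1 UMI (3.53%, 4.78% and 7.07% unthinned). Erythroid cells, which should lack the gene and were chosen as a reference after seeing the data, gave 2.56%, 2.47% and 0.823% (15.9%, 16.4% and 6.996% unthinned). The otic share was below the erythroid share in CD replicate 1 and WT replicate 1. In WT replicate 2 it was above it in thinned cells and nearly equal to it unthinned. The source of the erythroid UMIs was not tested and erythroid cells are deeper, so this reference cannot say whether the otic UMIs are background. Thinning left out 44, 20 and 111 otic cells and 1, 1 and 0 erythroid cells, whose median depths were 21917, 24648 and 18176 UMIs and 40894.5, 40122.5 and 37593 UMIs. Nid2, its relative, was at 3.17, 5.38 and 6.31 CPM in otic cells, 31.7, 35.2 and 29.8 CPM in mesenchyme and 68, 73.8 and 64.9 CPM in endothelium. Nid2 thus had the order of Nid1, endothelium above mesenchyme above otic cells, with no overlap of libraries. Low otic levels of other members, such as Nid2 and Lama4, are not set against the erythroid reference here.

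Hspg2, the heparan sulfate proteoglycan perlecan, was at 199, 185 and 220 CPM in endothelium, 49.2, 40 and 49.2 CPM in otic cells and 18.3, 14.6 and 20.1 CPM in mesenchyme. Otic cells were above mesenchyme by 1.24 (SE 0.13, adjusted p = 7.91e-06) and below endothelium, with a fold change of -2.36 (SE 0.12, adjusted p = 2.08e-08). Agrn, the proteoglycan that binds laminin and dystroglycan, was at 73.9, 65.9 and 70.8 CPM in otic cells, above its 40.5, 46.6 and 49.7 CPM in endothelium and 28.9, 28.9 and 34.5 CPM in mesenchyme. The fold change of Agrn over mesenchyme was 1.05 (SE 0.07, adjusted p = 2.96e-07). Of these 4 linkers, Nid1, Nid2 and Hspg2 were highest in endothelium and Agrn in otic cells. The nidogens were lowest in otic cells, but without cells that meet another gate Nid2 was higher in otic cells than in neurons (0.86, SE 0.30, adjusted p = 0.024), and the Nid1 difference, -0.85 (SE 0.42), was not called (adjusted p = 0.0953).

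The Fras and Frem genes, whose proteins hold embryonic epithelium to the tissue below, were higher in otic cells, with 1 exception. Frem2 was at 60.9, 47.6 and 49.8 CPM in otic cells and 1.67, 2.34 and 2.7 CPM in mesenchyme, and its fold change of 4.41 (SE 0.18, adjusted p = 1.07e-08) was the highest of the tested members. Fras1 was at 54.6, 38.5 and 41.7 CPM in otic cells and 13.1, 9.95 and 14.6 CPM in mesenchyme, a fold change of 1.71 (SE 0.13, adjusted p = 1.02e-06). Both were at 5 CPM or less in endothelium. Frem1, which is secreted and joins them in the complex, did not follow: it was at 7.57, 9.55 and 10.4 CPM in otic cells and 10.1, 9.68 and 5.91 CPM in mesenchyme, a difference of -0.03 (SE 0.24, adjusted p = 0.928) and a 95% normal interval from -0.49 to 0.44. Frem1 was higher in otic cells than in endothelium by 1.04 (SE 0.34, adjusted p = 0.0176), by 0.87 (adjusted p = 0.0793) without WT replicate 1 and by 0.54 (adjusted p = 0.371) in cells thinned to 5000 UMIs.

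Among the adhesive proteins, Fn1, the fibronectin gene, was at 256, 163 and 204 CPM in otic cells, 115, 101 and 106 CPM in mesenchyme and 131, 152 and 128 CPM in endothelium. Otic cells were above mesenchyme in each library, by 0.80 (SE 0.12, adjusted p = 0.000117). The call against endothelium, 0.34 (SE 0.12, adjusted p = 0.0262), was lost without CD replicate 1 (0.11, adjusted p = 0.464) and without WT replicate 2 (0.30, adjusted p = 0.116). Npnt, nephronectin, a ligand of integrin alpha 8 beta 1, was at 41.9, 35.2 and 34.9 CPM in otic cells and 7.24, 3.67 and 5.46 CPM in mesenchyme, a fold change of 2.65 (SE 0.21, adjusted p = 1.1e-06). Egfl6, a matrix protein related to nephronectin, went the other way, with 4.84, 3.35 and 4.1 CPM in otic cells against 16.7, 14.1 and 20.3 CPM in mesenchyme, a fold change of -2.19 (SE 0.16, adjusted p = 6.64e-07). The paired classes did not overlap for either gene.

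The matricellular members, which bind matrix and calcium rather than build the sheet, were all higher in otic cells than in mesenchyme. Sparc was at 404, 329 and 569 CPM in otic cells, 164, 166 and 171 CPM in mesenchyme and 804, 1027 and 979 CPM in endothelium, so it was between the other classes, with a fold change over mesenchyme of 1.22 (SE 0.17, adjusted p = 6.89e-05). Smoc1 was at 10.3, 16.5 and 14.5 CPM in otic cells and 2.04, 3.16 and 2.05 CPM in mesenchyme, a fold change of 2.38 (SE 0.19, adjusted p = 9.24e-07). Neurons had Smoc1 levels close to those of otic cells, 13.1, 13.3 and 10.4 CPM, and 15.8, 15.8 and 13.9 CPM without cells of other gates. Both sets of neuron values were above the otic value in CD replicate 1 and below it in each WT library. Smoc2 was at 2.68, 4.48 and 4.51 CPM in otic cells and 1.87, 1.79 and 2.18 CPM in mesenchyme. Its call, 0.82 (SE 0.23, adjusted p = 0.0101), was lost without WT replicate 1 (0.68, adjusted p = 0.0731) without WT replicate 2 (0.76, adjusted p = 0.0687) and in thinned cells (0.74, adjusted p = 0.0501).

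Of the receptor subunits, the alpha subunits and the hemidesmosomal beta subunit marked otic cells against mesenchyme. Itga6, which pairs with Itgb1 or Itgb4 to bind laminin, was at 78.2, 67.9 and 65.4 CPM in otic cells, 14.2, 13.6 and 14.2 CPM in mesenchyme and 207, 157 and 150 CPM in endothelium. Its fold change over mesenchyme was 2.18 (SE 0.10, adjusted p = 1.65e-08), with endothelium above both. Itga3, a partner of Itgb1 in binding laminins with the alpha 3 or alpha 5 chain, was at 13, 12.3 and 11.5 CPM in otic cells and 0.594, 0.367 and 0.726 CPM in mesenchyme, a fold change of 4.23 (SE 0.21, adjusted p = 3.96e-08). Endothelium was close to otic cells in Itga3, at 10.51, 9.92 and 9.62 CPM, with no call (0.06, SE 0.18). Itgb4, which forms hemidesmosomes with Itga6, was low but otic: 3.23, 2.87 and 3.71 CPM against 0.481, 0.459 and 0.3 CPM in mesenchyme, a fold change of 2.89 (SE 0.27, adjusted p = 3.75e-06).

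Itgb1, the beta subunit common to most matrix integrins, was at 168, 190 and 155 CPM in otic cells, 183, 235 and 157 CPM in mesenchyme and 350, 443 and 308 CPM in endothelium. It was the flattest receptor between otic cells and mesenchyme, at -0.29 (SE 0.05, adjusted p = 0.000632), and that call was lost without the library block (-0.30, adjusted p = 0.15). Dag1, dystroglycan, was at 101, 84.7 and 81.9 CPM in otic cells, 48.5, 47 and 43.2 CPM in mesenchyme and 35.7, 39.4 and 35.5 CPM in endothelium. Otic cells had the most Dag1 in every library, by 0.80 (SE 0.06, adjusted p = 5.83e-07) over mesenchyme and 1.03 (SE 0.07, adjusted p = 1.43e-07) over endothelium.

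The cells shared with other gates bore on the neuron values. Nid1 was at 24.7, 30.5 and 27.8 CPM in the neuron gate and at 4.59, 4.57 and 5.12 CPM without those cells. Col4a1 was at 79.3, 140 and 104 CPM with them and 11.4, 14.8 and 13.7 CPM without. The otic to neuron difference of Col4a1 was 0.14 (SE 0.14, adjusted p = 0.379) with them and 3.10 (SE 0.16, adjusted p = 5.35e-09) without. Lama1, Lama2, Lamc3, Nid2, Egfl6, Smoc1 and Itgb1 changed sign in this comparison between the 2 settings, Smoc1 without a call in either. Levels of Agrn (36.2, 40.1 and 38.9 CPM, and 34.9, 35.8 and 36.1 CPM without) and Dag1 (41.5, 42.8 and 39.3 CPM, and 40.1, 39.8 and 35.9 CPM without) hardly moved.

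Within the otic epithelium, cells with a UMI of Otx1 or Otx2, of Irs4 or of Gbx2, which mark different regions or states of the vesicle wall, were compared with the otic cells that had none. The positive cells numbered 537, 629 and 860 for Otx1 and Otx2, 312, 189 and 248 for Irs4, and 839, 721 and 763 for Gbx2. Cells with a UMI are also deeper: the medians were 26029, 30511 and 22963 UMIs in Otx-positive cells and 20815.5, 23117.5 and 17003 UMIs in Otx-negative ones. Calls lost in cells thinned to 5000 UMIs each, in a first random draw or in a second draw added after seeing the data, are therefore given below. The comparisons share cells, for instance 133, 75 and 45 cells positive for both Irs4 and Gbx2, and the differences between them were not tested.

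**Figure D4:**
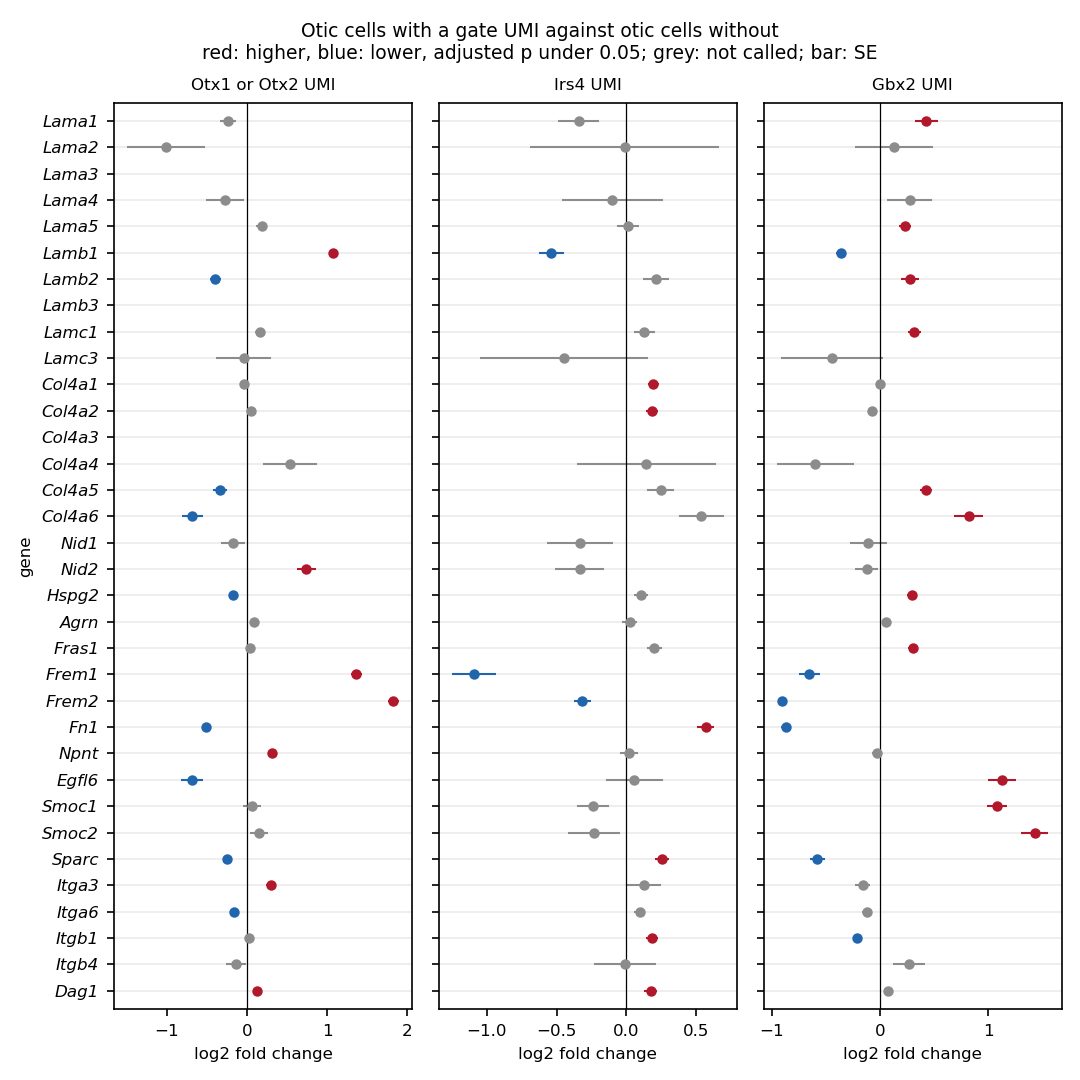
Log2 fold changes of otic cells with a UMI of Otx1 or Otx2, of Irs4 or of Gbx2 against otic cells without one, from edgeR with the library as a block, with bars of 1 SE, red for higher and blue for lower at an adjusted p under 0.05, and grey for not called. The scales differ. Frem1 and Frem2 lie to the right in the Otx panel and to the left in the other panels, and Egfl6, Smoc1 and Smoc2 lie to the right in the Gbx2 panel.

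Otx-positive cells had 7 members higher (13.6% of all 15580 genes) and 8 lower (12.8% of all genes), with a member median of 0.02 against 0.01. Frem2 was at 130, 87.9 and 110 CPM in them and 38.2, 28.2 and 26.2 CPM in the Otx-negative cells, a fold change of 1.82 (SE 0.07, adjusted p = 8.43e-08). Frem1 was at 14.5, 16.4 and 17.9 CPM against 5.27, 6.25 and 7.37 CPM, a fold change of 1.36 (SE 0.07, adjusted p = 9.31e-07). Their partner Fras1 showed no such difference, at 51.4, 38.7 and 46.4 CPM against 55.6, 38.4 and 39.9 CPM (0.04, SE 0.06, adjusted p = 0.678). Lamb1 was at 55.9, 39.4 and 42.6 CPM against 23.7, 19.7 and 21.3 CPM, a fold change of 1.07 (SE 0.06, adjusted p = 8.48e-07), and no library overlapped. Lamb2 moved the other way, 9.5, 8.14 and 10.3 CPM against 12.8, 11 and 13 CPM (-0.40, SE 0.07, adjusted p = 0.00227). Nid2 (0.74), Npnt (0.31), Itga3 (0.30) and Dag1 (0.12) were also higher, and Egfl6 (-0.69), Col4a6 (-0.69), Fn1 (-0.51), Col4a5 (-0.34), Sparc (-0.25), Hspg2 (-0.17) and Itga6 (-0.16) lower. Leaving out either WT library removed the calls of Hspg2 (-0.17 without WT replicate 1, -0.15 without WT replicate 2) and Dag1 (0.10 and 0.11). The call of Itga3 was lost without WT replicate 1 (0.27). In thinned cells 9 members were called in each draw (14.2% and 16% of all genes). In both draws the calls of Hspg2 (-0.09 and -0.07), Dag1 (0.04 and 0.11), Col4a5 (-0.31 and -0.30), Col4a6 (-0.87 and -0.60) and Egfl6 (-0.85 and -0.44) were lost. Nid2 lost its call in the first draw (0.67, adjusted p = 0.0574) and Itga3 in the second (0.13, adjusted p = 0.652). Frem1, Frem2 and Lamb1 were called in both draws, at 1.14 to 1.82. Without the library block 4 members were called (6.04% of all genes). DESeq2, the other tool, called 5 members higher and 3 lower, and 1967 of 23211 genes. The calls of Col4a5, Col4a6, Dag1, Egfl6, Hspg2, Itga3 and Itga6 were lost with it.

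Irs4-positive cells had 6 members higher (2.96% of all 15619 genes) and 3 lower (3.76% of all genes), with a member median of 0.06 against 0.00. Fn1 was at 318, 237 and 318 CPM in them and 245, 155 and 194 CPM in Irs4-negative cells, a fold change of 0.57 (SE 0.06, adjusted p = 0.000275). Frem1 was at 4.81, 4.54 and 3.77 CPM against 8.06, 10.1 and 10.9 CPM, a fold change of -1.09 (SE 0.16, adjusted p = 0.00189). These 2 calls held without any 1 library, but in thinned cells Frem1 was not called in either draw (-0.83, adjusted p = 0.206, and -1.08, adjusted p = 0.0662). The remaining calls were each lost without at least 1: Lamb1 (-0.54, and -0.44 without WT replicate 2), Frem2 (-0.31, and -0.25 without WT replicate 1 or -0.29 without WT replicate 2), Sparc (0.26, and 0.24 without WT replicate 2), Col4a1 (0.20, and 0.17 without CD replicate 1 or 0.18 without WT replicate 1), Col4a2 (0.19, and 0.18 or 0.17), Itgb1 (0.19, and 0.20 without CD replicate 1 or 0.15 without WT replicate 2) and Dag1 (0.18, and 0.17 without WT replicate 1 or 0.15 without WT replicate 2). In thinned cells 7 and 2 members were called in the 2 draws (4.2% and 3.84% of all genes), with Fn1 (0.53 and 0.54) and Sparc (0.27 and 0.29) called in both. Frem2 (-0.17 and -0.21) and Dag1 (0.07 and 0.08) were called in neither draw, and Lamb1 (-0.39), Col4a1 (0.22), Col4a2 (0.13) and Itgb1 (0.17) not in the second. Fras1, not called with all UMIs (0.20), was called in the first draw at 0.45. With class gates raised to 4 UMIs, 1 member, Fn1, was higher (382 of 14924 genes) and 3 lower (470 genes). Col4a1, Col4a2, Dag1, Itgb1 and Sparc lost their calls there. Without the library block 1 member, Frem1, was called (1.06% of all genes). DESeq2 called 4 members higher and 3 lower, and 696 of 23211 genes, and the calls of Col4a2 and Dag1 were lost with it.

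Gbx2-positive cells had 11 members higher (15.9% of all 15527 genes) and 6 lower (16% of all genes), with a member median of 0.05 against -0.01. Smoc2 was at 4.24, 8.14 and 8.56 CPM in them and 1.78, 2.51 and 3.32 CPM in Gbx2-negative cells, a fold change of 1.43 (SE 0.13, adjusted p = 4.47e-05). Egfl6 was at 6.78, 5.26 and 7.9 CPM against 3.7, 2.33 and 2.98 CPM, a fold change of 1.12 (SE 0.13, adjusted p = 0.00022), and Smoc1 at 17.1, 23.5 and 24.3 CPM against 6.32, 12.7 and 11.6 CPM, a fold change of 1.08 (SE 0.09, adjusted p = 3.32e-05). Each of these rose within every library. Col4a6 (0.82, SE 0.14) and Col4a5 (0.42, SE 0.06) were both higher, but in thinned cells Col4a5 was at 0.21 in the first draw (adjusted p = 0.295) and 0.43 in the second (adjusted p = 0.0264), and Col4a6 at 0.81 (adjusted p = 0.0206) and 0.35 (adjusted p = 0.413). Frem2 was at 40.1, 31.1 and 29.4 CPM against 73.1, 56.4 and 55.8 CPM, a fold change of -0.91 (SE 0.04, adjusted p = 4.26e-07). Fn1 was at 161, 112 and 128 CPM against 312, 190 and 227 CPM, a fold change of -0.87 (SE 0.04, adjusted p = 5.61e-07). Frem1 (-0.65), Sparc (-0.58), Lamb1 (-0.36) and Itgb1 (-0.21) were lower too, and Lama1 (0.43), Lamc1 (0.32), Fras1 (0.31), Hspg2 (0.29), Lamb2 (0.27) and Lama5 (0.23) higher. Lama1 was at 0.33 and not called without WT replicate 1, and Lama5 (0.19) and Lamb2 (0.15) were not called without WT replicate 2. In thinned cells 13 and 16 members were called in the 2 draws (23.8% and 21.2% of all genes). Lama1 (0.50 and 0.55) was called in neither, Lamb1 (-0.26) and Lamb2 (0.22) not in the first, and Lama5 was called at 0.46 and 0.47. Itgb4, not called with all UMIs (0.27), was called in the second draw at 0.73. Without the library block 7 members were called (7.72% of all genes). DESeq2 called 8 members higher and 6 lower, and 2623 of 23211 genes. The calls of Lama1, Lama5 and Lamb2 were lost with it.

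The CD library was compared with the WT libraries in each class, to ask whether these genes differ in the Sox9 Y440X heterozygote. Sox9 encodes a transcription factor of the otic placode and of cartilage. Its own level was 708, 420 and 348 CPM in otic cells, but a 3′ tag does not read the Y440X allele and so does not check the genotype. The fit takes the spread from the WT pair and assumes that the lone CD library varies like them. No member was called in any class. In otic cells 0 of 32 tested members passed, where 0.0354% of all 16961 genes did (6 genes). At an unadjusted p under 0.05, there were 7 members in edgeR (4.26% of all genes) and 6 in DESeq2 (1.88% of all genes), which called 0 members as well. The member median was 0.06 and the all-gene median 0.00. By levels alone, CD was above both WT libraries for 16 of the 32 tested members (43% of all genes) and below both for 8 (22% of all genes).

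**Figure D5:**
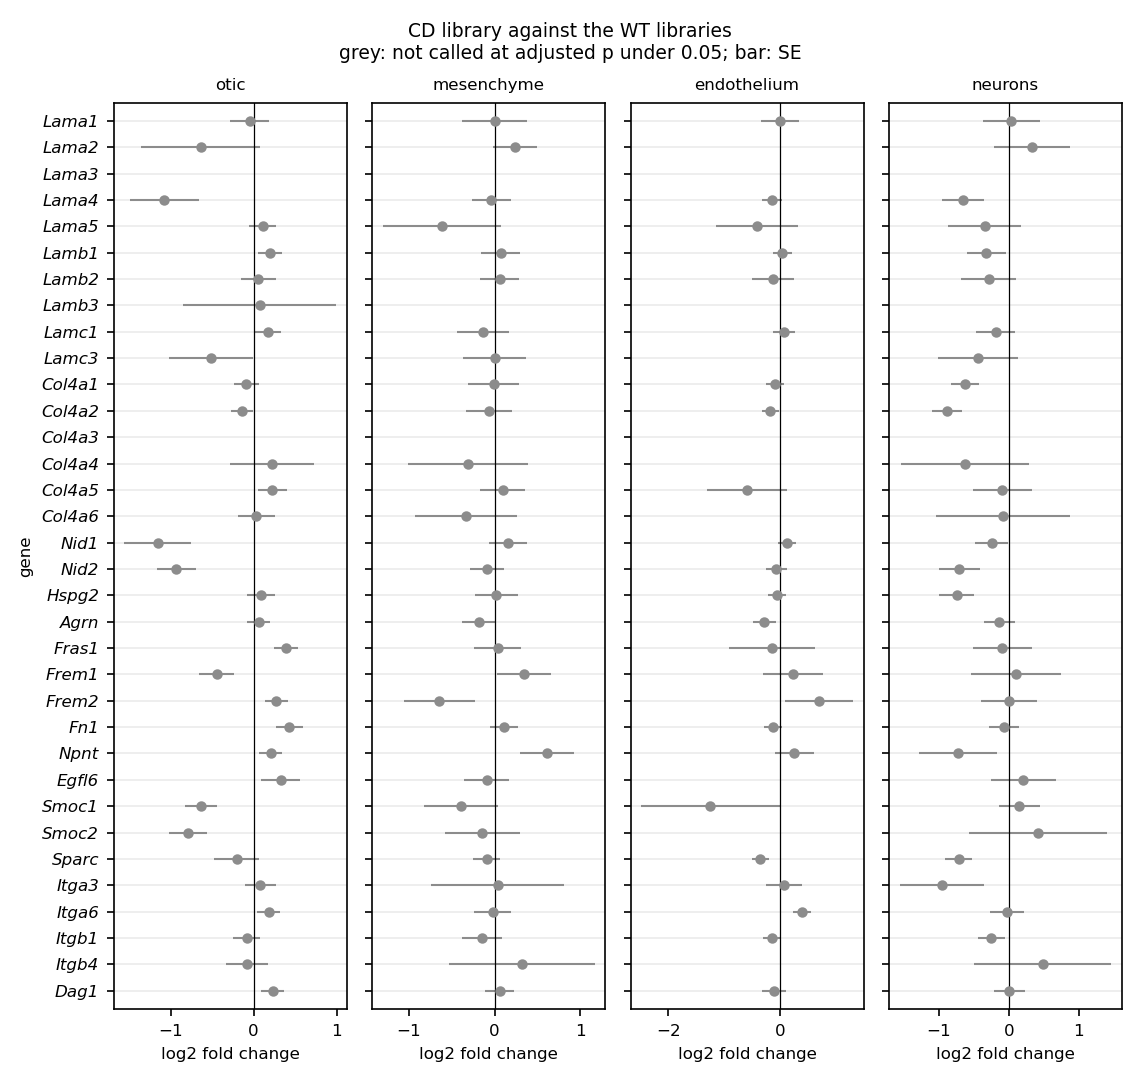
Log2 fold changes of the CD library against the WT libraries in the 4 classes from the edgeR fits, one row per gene, with bars of 1 SE and grey for not called at an adjusted p under 0.05. The scales differ. Every point is grey, and Nid1, Lama4, Nid2 and Smoc2 lie farthest to the left in otic cells.

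The lower values in CD otic cells included those of the nidogens and the Smoc genes. Nid2 was at 3.17 CPM in CD against 5.38 and 6.31 CPM in WT, a fold change of -0.94 (SE 0.23, adjusted p = 0.468). Smoc2 was at 2.68 CPM against 4.48 and 4.51 CPM (-0.79, SE 0.23, adjusted p = 0.632), and Smoc1 at 10.3 CPM against 16.5 and 14.5 CPM (-0.64, SE 0.19, adjusted p = 0.682). In each of these the CD library was below both WT libraries, and none passed the test. In the Gbx2-positive otic cells, where Smoc2 is highest, CD had 4.24 CPM against 8.14 and 8.56 CPM. Nid1 had -1.16 (SE 0.40, adjusted p = 0.888) and Lama4 -1.08 (SE 0.41, adjusted p = 1.00). Nid1, Nid2 and Lama4 were each higher in endothelium and in mesenchyme than in otic cells. The summed endothelium markers in otic cells were 20.8, 24.2 and 31.7 CPM, the mesenchyme markers 116, 77.6 and 163 CPM and the macrophage markers 4.54, 6.73 and 26.9 CPM. Of the 9, 8 and 7 markers, Tie1 and Ptprc were under 1 CPM in all libraries, and the part of the marker signal in these values was not tested. With no filter on low genes, Nid1 alone of the members was called, at -1.16 (adjusted p = 0.0218).

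Higher in CD otic cells, without passing the test, were Fn1, at 256 CPM against 163 and 204 CPM (0.43, SE 0.16, adjusted p = 1.00), and Fras1, at 54.6 CPM against 38.5 and 41.7 CPM (0.39, SE 0.14, adjusted p = 0.943). Frem2, at 60.9 CPM against 47.6 and 49.8 CPM, had 0.27 (SE 0.14). Lama5, the leading otic alpha chain, had 0.11 (SE 0.16), Lamb1 0.19 (SE 0.14), Lamc1 0.17 (SE 0.16), Col4a1 -0.09 (SE 0.15) and Dag1 0.23 (SE 0.14). A missed threshold with 1 CD library does not show that these levels are alike.

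In mesenchyme 0 of 31 tested members were called by edgeR, which called 0% of all 15444 genes, or by DESeq2, which called 0 genes. The unadjusted p was under 0.05 for 0 members in both tools, against 144 genes in edgeR (0.932% of all genes) and 0.303% of all genes in DESeq2. Npnt was at 7.24 CPM in CD against 3.67 and 5.46 CPM, with 0.61 (SE 0.32). In endothelium 0 of 24 were called, against 0.306% of all 12110 genes, with 2 members at an unadjusted p under 0.05 in edgeR (3.67% of all genes) and 1 in DESeq2 (0.352% of all genes). Itga6 was at 207 CPM in CD against 157 and 150 CPM (0.39, SE 0.16, adjusted p = 0.888), and Sparc at 804 CPM against 1027 and 979 CPM (-0.36, SE 0.15, adjusted p = 0.993). With doublets kept, Frem2 was called in endothelium at 1.29 (adjusted p = 0.0413), and its main value was 0.69 (SE 0.61).

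In the neuron gate 0 of 31 were called, against 0.137% of all 14628 genes, with 6 members at an unadjusted p under 0.05 in edgeR (2.38% of all genes) and 4 in DESeq2 (0.455% of all genes). Col4a2 was at 41.8 CPM in CD against 83.7 and 69.8 CPM (-0.88, SE 0.21, adjusted p = 0.133), and Sparc at 106 CPM against 183 and 163 CPM (-0.71, SE 0.19, adjusted p = 0.255). With no filter on low genes Col4a2 was called (adjusted p = 0.0217). The endothelium markers in this gate summed to 272, 471 and 402 CPM, lowest in CD. The part of the marker signal in the Col4a2 and Sparc values was not tested. Without cells of other gates Col4a2 had -0.49 (SE 0.27, adjusted p = 1.00) and Sparc -0.51 (SE 0.23, adjusted p = 1.00), and 1 of 27 tested members had an unadjusted p under 0.05 (1.12% of all genes). The difference between the CD effects in otic cells and in mesenchyme was called for 0 of 31 members and 0% of all 17219 genes in edgeR, with 3 members and 403 genes (2.34%) at an unadjusted p under 0.05, and DESeq2 called 4 genes. Frem2 had 0.91 (SE 0.19, adjusted p = 1.00) in that test.

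Other genes of the pathway were counted in lists that hold no member. Of 16 tested genes of other basement membrane matrix, 5 were higher and 9 lower in otic cells than in mesenchyme. These counts and those of the lists that follow stand against 31.5% of all genes higher and 31.4% lower. Vwa2, a matrix protein of epithelial basement membranes that binds Fras1, was at 13.3, 12.9 and 12.4 CPM in otic cells against 0.141, 0.0459 and 0.451 CPM (5.57, SE 0.31, adjusted p = 7.86e-08). Fbln2, a fibulin, was at 1.97, 3.43 and 7.6 CPM against 62.8, 69.3 and 82.6 CPM (-4.33, SE 0.29, adjusted p = 3.11e-07). Col7a1, the anchoring fibril collagen, had 2.74 and Vtn, vitronectin, -4.62.

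Of 26 other matrix receptors, 9 were higher and 14 lower. Bcam, a receptor of the laminin alpha 5 chain, was at 106, 98.9 and 99.5 CPM in otic cells against 3.62, 4.36 and 4.58 CPM in mesenchyme (4.47, SE 0.12, adjusted p = 2.98e-09). The collagen receptors Ddr1 (2.29) and Ddr2 (-5.18) had opposite signs, and Itga1, a collagen IV receptor subunit, had -4.17. Of 16 genes of integrin linkage, 4 were higher and 9 lower, with Fermt1, the epithelial kindlin, at 5.71, Plec, plectin, at 2.10, Tns1, tensin, at -3.43 and Vcl, vinculin, at -1.17.

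Of 17 genes of collagen and laminin biosynthesis, 3 were higher, among them the lysyl hydroxylases Plod2 (1.04) and Plod1 (0.31), and 9 lower, among them Crtap (-1.46) and P3h1 (-1.04) of the prolyl 3-hydroxylase complex. Of 17 genes of dystroglycan glycosylation and complex, 7 were higher, with Dmd, dystrophin, at 1.26 and Pomgnt2 at 1.14, and 5 lower, with Sspn at -2.43 and Sgcb at -0.99. Of 15 matrix turnover genes, 5 were higher, with Adamts5 at 2.89 and Mmp15 at 2.02, and 7 lower, with Mmp2 at -2.95 and Timp1 at -2.78. No gene of these 6 lists was called between CD and WT by edgeR in otic cells, mesenchyme, endothelium or neurons.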

How the data were processed

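The authors deposited raw UMI counts, whole numbers for each feature in each barcode, made with Cell Ranger 6.0 (6.0.0 per the file headers) and build mm39 per the submitters' processing notes, with no normalisation. Per the labels' protocols, pooled vesicles were digested with TrypLE, collagenase and dispase, and libraries were made with the Chromium 3′ v3.1 kit. The libraries held 186439890, 157373393 and 202584468 UMIs (CD replicate 1, WT replicate 1, WT replicate 2). After the cell filter, Scrublet (scanpy 1.11.5, run on each library with 5% expected) marked doublets, which were removed: 281, 184 and 373 barcodes (3.29%, 2.80% and 3.39%). This left 8267, 6380 and 10645 cells at medians of 18328, 20054 and 15294 UMIs a cell.

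Counts were summed per library and class and fitted over all genes with edgeR 4.0.16 (quasi-likelihood test, TMM scaling, filterByExpr) in R 4.3.3, with Benjamini-Hochberg adjusted p under 0.05 as the call. Levels are unscaled CPM and fold changes are log2. DESeq2 1.42.0 was the other tool. Comparisons of classes and of otic subsets had the library as a block, since both sides come from 1 pool of cells. Counts were simulated with an assumed dispersion of 0.01, the same for every gene, which may not be that of the libraries. On them, 70.7% of 2-fold and 95.0% of 4-fold changes were recovered for CD against WT in otic cells (16868 genes, with 9 false calls). Between otic cells and mesenchyme, 92.6% and 100% were recovered (15216 genes, with 10). In the real main fit Nid1 (-1.16) and Lama4 (-1.08) were not called between CD and WT otic cells, so the simulated shares may overstate what that test recovers. The WT libraries differed by more than sampling noise (chi-square per degree of freedom 54.3 over 17749 genes). All 34 members are named by rule. Other genes are named where called, at most 2 each way per list with the largest change and a mean of at least 5 CPM. The members, gates and lists were chosen with earlier results of these data known. Alternatives were scaling, gene and cell filters, doublets, gates, thinning, the block and leaving out each library.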

Additional observations from a re-analysis of the deposited data

How the results depend on the processing

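Of 4172 tested values of the members under the alternatives, 3750 kept direction and side of the threshold, 170 were no longer called, 51 became called and 193 were called in neither setting and changed sign. Of 233 values with no test, 186 moved by 1 SE or less and 47 by more, and 50 changed sign. The 8 sign changes of values called in at least 1 of the settings were otic against neuron differences: with cells of 1 gate only, Lama1 1.41, Lama2 0.85, Lamc3 1.40, Nid2 0.86, Egfl6 2.42 and Itgb1 0.00092, and with gates at 4 UMIs, Lama1 0.62 and Egfl6 0.79.

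Counts of called genes moved as follows. For CD against WT in otic cells (6 genes) the count was 65 with DESeq2, 263 with no gene filter, 16 with doublets kept, 13 with cells of 1 gate, 22 with gates at 4 UMIs, 66 with cells thinned to 5000 UMIs (5 in a second random draw, added after seeing the data), and 0 with the looser cell filter (549 at an unadjusted p under 0.05 in edgeR). In mesenchyme (0) it was 42 with no gene filter, 6 with doublets kept and 21 thinned (0 in the second draw, 191 unadjusted in edgeR). In endothelium (37) it was 7 with DESeq2, 56 with no gene filter, 16 with gates at 4 UMIs, 15 and 13 in the 2 thinned draws and 0 with the looser filter (231 unadjusted in edgeR). In neurons (20) it was 4 with DESeq2, 63 with no gene filter, 1 with cells of 1 gate, 9 thinned, and 0 in edgeR with the second draw (115 unadjusted), doublets kept (265), the looser filter (242) or gates at 4 UMIs (327). For the difference of CD effects (0) it was 4 with DESeq2, 1 with no gene filter, 5 with gates at 4 UMIs and 33 and 10 in the thinned draws, so the thinned counts for CD depend on the draw. Thinned cells gave 7381 and 7365 for otic against endothelium (11081) and 6022 and 6030 for mesenchyme against endothelium (9508). For Otx (4104), Irs4 (1050) and Gbx2 (4945) the counts were 1967, 696 and 2623 with DESeq2, 1817, 537 and 3039 in the first thinned draw, 2037, 491 and 2708 in the second, and 941, 165 and 1199 with no replicate block. Irs4 had 1637 with no gene filter and 598 to 1111 with 1 library left out.

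No paired analysis was possible because CD has 1 library and shares only 1 replicate number with WT. The cause of these shifts was not tested. With 1 CD library, leaving out a WT library leaves no residual degree of freedom, so no test was run. Free RNA and cells shared between gates limit what low levels mean.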
